A study of Rattus norvegicus with 16 samples.

Results

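The m6A map of the VCD rat ovary held 21528 peaks, regions where RNA pulled down with an m6A antibody (IP) was enriched over the input RNA of the same ovaries. All peaks in the authors' list of VCD IP over VCD input were taken, out of 43844 peaks in the VCD and control lists of the series together. The series has 16 libraries, of which 8 came from rats labelled VCD, an IP and an input library for each of 4 animals. Titles number the animals, and each number also has a batch label of its own. VCD is the usual short form of 4-vinylcyclohexene diepoxide, a chemical that destroys small ovarian follicles in rodents. The dose, duration, strain and age of the animals are not given in the sources used here. Poly(A) RNA of whole ovary was broken into fragments before the antibody was added, and libraries kept the strand of the RNA, per the labels' protocols. The organism label is rat and the gene identifiers are rat ones, although the series text speaks of mice.

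N6-methyladenosine (m6A) is the most common internal chemical mark of messenger RNA. A methyltransferase complex built on METTL3 and METTL14 writes it, FTO and ALKBH5 can remove it, and YTH-domain and other proteins bind it. Binding by these readers is known to alter splicing, export, translation and decay of the marked RNA. In mammalian messages the mark is known to gather near stop codons and in long internal exons. In the ovary it is best known for its part in oocyte growth and in the clearing of maternal RNA.

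The input libraries held RNA of steroid-making cells at high levels and little oocyte RNA. All 19 granulosa markers and 16 of 17 theca and steroidogenic markers measured reached a mean of 1 FPKM (fragments per kilobase of transcript, scaled to the size of the library), and the summed level of the theca and steroidogenic list lay between 10800 and 14390 FPKM in the 4 libraries. By contrast, 24 of 29 oocyte markers were under 1 FPKM, and their summed level lay between 18.47 and 25.68 FPKM. Blood markers summed to 677.3, 474.1, 168.2 and 437.2 FPKM in VCD animals 1 to 4, so animal 3 was lowest. The immediate-early list, genes switched on within minutes of a stimulus, summed to 1637, 914.9, 705.0 and 1647 FPKM in the same order. In whole tissue, fewer cells of a type and less RNA per cell cannot be told apart.

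Nearly every peak lay in an annotated gene. The list assigned 21512 peaks to 12840 genes, and 16 peaks had no gene, 11 of them intergenic. Log2 enrichment of VCD IP over VCD input had a median of 2.40, which is 5.27-fold, and quartiles of 1.81 and 3.35. It ran from 0.67 to 8.40 in all, and 64.7% of peaks had a log2 enrichment of at least 2. The highest adjusted p in the authors' deposited table was 0.0173, and 7771 peaks had it listed as 0. Each peak has 1 value for all VCD libraries together, so no peak value has a replicate error, and the comparisons of peaks below are descriptions.

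In 11 genes annotated as miRNA a peak was listed, with log2 enrichments of 2.71 to 7.73, and in 9 of them the peak had the same first and last base as the gene. Such peaks were rare, since 1 of 90 miRNA genes that averaged 1 FPKM or more had one (1.11%), against 80.6% of all such genes. In 2 of them, Mir3554 and Mir223, the symbol matched a hairpin in RefSeq. They were chosen for that match after their values were seen, and their hairpins are shown because they are the members whose sequence could be read from a table. Both run 5′ to 3′ on the plus strand, on GRCr8, at chromosome 5:108714843-108714960 for Mir3554 and chromosome X:65151383-65151492 for Mir223, with capitals for GGAC, a core often found at m6A sites.
Mir3554: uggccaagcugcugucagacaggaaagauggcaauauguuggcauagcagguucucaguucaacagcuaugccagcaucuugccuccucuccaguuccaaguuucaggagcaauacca
Mir223: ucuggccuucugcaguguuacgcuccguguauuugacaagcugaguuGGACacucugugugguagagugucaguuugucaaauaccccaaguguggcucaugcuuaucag
The Mir3554 peak, of log2 5.09, covered the whole 118-base gene, whose hairpin holds no GGAC. The Mir223 peak, of log2 3.54 and 750 bases, overlapped the last 35 bases of the 110-base gene and lay otherwise downstream of it. The GGAC of Mir223 starts at base 48 of the hairpin, before those last 35 bases, so it lies outside the peak. Mir223 averaged 0.2255 FPKM, a value near 0. GGAC was searched on the transcribed strand alone and occurs in 99 of 419 rat hairpins of the table (23.6%). A match of these letters is not a methylated site.

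Enrichment was highest in peaks of the stop_codon class. Peaks annotated stop_codon were the largest class, with 7079 peaks or 32.9% of the map, and had a median log2 enrichment of 3.11 (8.63-fold). Coding exon peaks, annotated exonic, followed in number with 5827 peaks (27.1%) and a median of 2.27. The 3′UTR class held 4299 peaks (20%) with a median of 1.88, and the start_codon class 2969 peaks (13.8%) with a median of 2.09. The 5′UTR class held 668 peaks (3.10%) with a median of 1.96, and exons of noncoding RNA 623 peaks (2.89%) with a median of 2.66. The remaining classes were small, with 47 intronic peaks, 3 downstream and 2 upstream of a gene, beside the intergenic ones. A log2 enrichment of at least 2 was reached by 86.1% of stop_codon peaks, 60.6% of exonic peaks and 43.1% of 3′UTR peaks. The classes overlapped widely all the same, with an upper quartile of 3.26 in the exonic class against a lower quartile of 2.37 in the stop_codon class. They also differed in length, introns included. Median lengths were 2538 bases for stop_codon, 2709 for exonic and 6456 for start_codon peaks, but 325 for 3′UTR and 375 for 5′UTR peaks. In a wide peak the class does not place the enrichment at the named feature itself. The part of length in these medians was not tested.

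**Figure D1:**
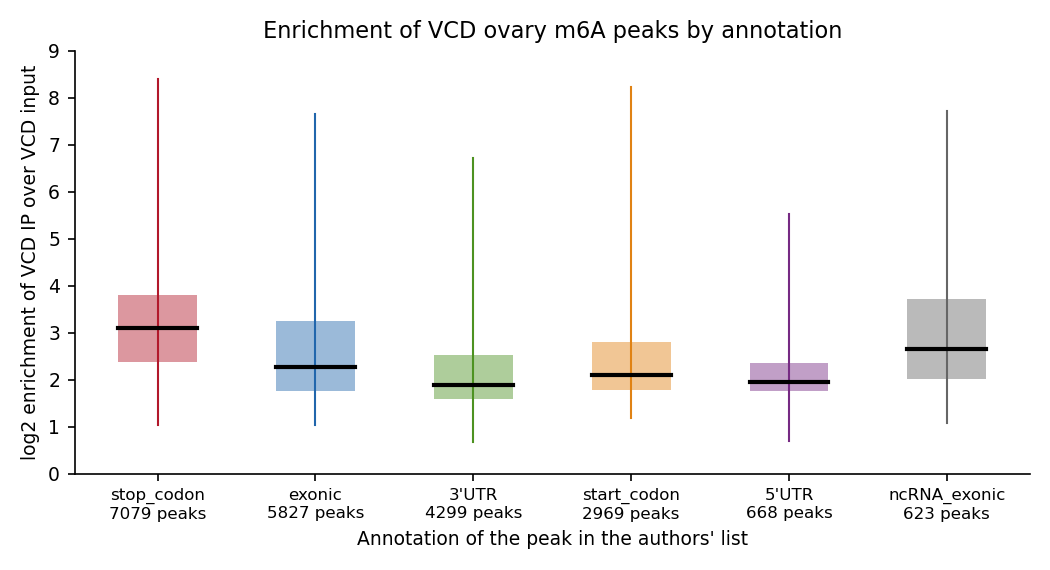
Log2 enrichment of VCD IP over VCD input (y axis) for the 6 largest annotation classes (x axis). Boxes span the quartiles, black bars mark medians and thin lines run from the lowest to the highest peak. The stop_codon box lies highest, with a median of 3.11, and the 3′UTR and 5′UTR medians lie lowest, at 1.88 and 1.96.

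Inside single genes the stop_codon peak was again mostly the strongest. Among 1352 genes with both a stop_codon and an exonic peak, the stop_codon peak was the stronger in 976 (72.2%), by a median of 0.56 on the log2 scale. Against a 3′UTR peak in the same gene it was the stronger in 1095 of 1364 genes (80.3%, median difference 0.87). Against a start_codon peak it was the stronger in 1095 of 1609 genes (68.1%, median difference 0.45), and against a 5′UTR peak in 295 of 361 (81.7%). Exonic peaks had a higher median than start_codon peaks over the whole map, but beside a start_codon peak of the same gene they were the stronger in 225 of 564 genes (39.9%), with a median difference of -0.155. Over the whole map the median level of the gene was 5.0 FPKM for exonic and 11.7 FPKM for start_codon peaks. The part of level in this contrast was not tested. The strongest peak was of the stop_codon class in 48.7% of the genes with a peak and a mean of at least 1 FPKM.

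A stop_codon peak was present in 7062 genes, 55% of those with any peak, and 3363 genes (26.2%) carried peaks of that class alone. Exonic peaks alone were found in 2162 genes (16.8%) and 3′UTR peaks alone in 1074 (8.36%). The most frequent pairing was a start_codon with a stop_codon peak, in 1041 genes (8.11%).

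Positions along the gene are given to describe the classes, which are themselves named by where a peak lies in its gene. Midpoints of 3′UTR peaks lay at a median of 98.6% of the way from the 5′ to the 3′ end of the gene, introns counted, and 76.1% of them were within 1000 bases of the 3′ end. The median for stop_codon peaks was 89.7%, for exonic peaks 56.9%, for start_codon peaks 18.8% and for 5′UTR peaks 3.01%. Peak ends are genomic and include introns, so lengths ran from 100 to 924229 bases with a median of 1627.5. At least 90% of the gene was covered by 17.6% of stop_codon peaks, whose midpoints therefore fall near its middle. Every one of the 21444 peaks whose gene has a strand in the expression table was listed on that strand. Many peaks share an edge with their gene, 5131 at its listed start and 3138 at its listed end, and 69 reach beyond it. How peaks were bounded and assigned to genes is not stated, so the match of strand is no separate result.

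**Figure D2:**
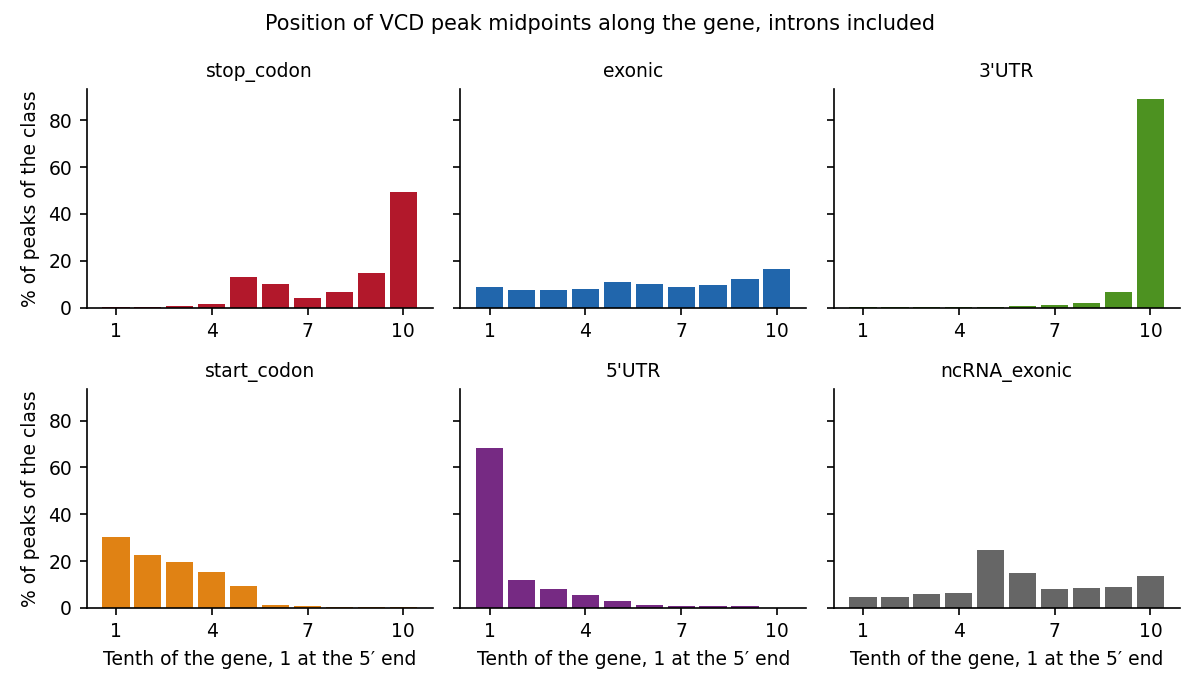
Share of the peaks of each annotation class (y axis, percent) by which of 10 equal stretches of the gene holds the peak's midpoint (x axis, 1 at the 5′ end, introns included). The 3′UTR class is gathered in the last stretch and the 5′UTR class in the first, and the stop_codon class has a second, lower rise near the middle of the gene.

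The strongest peaks among genes that averaged 1 FPKM or more differed widely in length and lay in genes of low to modest level, apart from LOC100911713 at 102 ± 16.2 FPKM (SD, n = 4). Zfp420, which encodes a zinc finger protein, had the highest, a start_codon peak of log2 8.22 (298-fold) at chromosome 1:88542035-88542384 on the plus strand. Its input level was 1.68, 1.68, 1.17 and 1.12 FPKM in animals 1 to 4. Ubald1 carried 1 exonic peak of 250 bases with log2 7.65, and Hnrnph3, an RNA-binding splicing factor, an exonic peak of log2 7.18 that spans 36488 bases with its introns. Gorasp2, a Golgi stacking protein, had an exonic peak of log2 6.72 beside a 3′UTR peak of 2.45. Strongest here means the highest ratio. In Gorasp2 the adjusted p in the authors' deposited table was 1.42e-74 for the exonic peak and 3.21e-256 for the 3′UTR peak. Mtf1, the metal-responsive transcription factor, had exonic peaks of log2 6.28 and 3.29. The highest 3′UTR peak among these genes was in Rtkn, with a length of 220 bases and log2 6.20.

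Among genes that averaged 1 FPKM or more, the highest peaks of the untranslated regions were short. After Rtkn, the highest 3′UTR peaks of such genes were in Csf1, which encodes a macrophage growth factor, and in P2rx7, an ATP-gated channel. Csf1 had a 100-base 3′UTR peak of log2 5.96, and P2rx7 one of the same length with log2 5.95. In Csf1 the wide stop_codon peak was lower, at 4.08, though its adjusted p was listed as 0 while that of the short peak was 2.55e-12. The highest 5′UTR peaks were in Slc15a3, an oligopeptide transporter of endosomes, with log2 5.53, and in Cactin, with 5.11. Tma7 at log2 5.78 and Itpripl1 at 5.39 were among the highest stop_codon peaks. The other 4 of the 10 strongest lay in LOC103690116, LOC100911713, LOC100361913 and NEWGENE_1359268. Such predicted genes can share reads with near-identical copies, which makes their values uncertain. Coordinates are those of the files, counted from 1, and no source used here states their genome build.

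Most genes with a peak had a single one. Of the 12840 genes, 6971 (54.3%) had 1 peak, 3982 had 2 and 1289 had 3, so that 45.7% had at least 2. With peaks of log2 2 or more alone 27.0% had at least 2. A further 185 genes had 5 or more. Peaks are counted as listed, and neighbours in a gene can lie close together. In Dst, for example, 1 peak ends at base 37956728 of chromosome 9 and the next starts at 37956754. With overlapping or touching peaks merged, 45.6% had at least 2, but neighbours with such gaps stay apart in that count. Whether close neighbours are separate sites was not tested. The gene span grew with the number of peaks, with a median of 14574 bases for genes with 1 peak, 24984 for 2 and 78893 for 5 or more, and 6672 for none, among genes that averaged 1 FPKM or more. Input level did not grow alongside, since the median was 9.90 FPKM with 1 peak, 10.2 with 2, 6.58 with 5 or more and 8.59 with none. Spearman's rho of peak number with span was 0.31 across 10864 genes, and with FPKM -0.03, where genes are not independent replicates and share the same libraries.

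The genes with most peaks include several of very large proteins. Dst, a cytoskeletal linker of the plakin family, had 12 peaks, 11 of them exonic and 1 at the stop codon, with a highest log2 enrichment of 3.06. Its input level was 11.6, 11.3, 9.19 and 9.40 FPKM in animals 1 to 4. Akap9, an anchoring protein of the centrosome and Golgi, had 11 peaks, of which 8 were exonic, between log2 1.07 and 3.96. The histone methyltransferase gene Kmt2d and the cytoskeletal cross-linker Macf1 had 10 peaks each, at most log2 3.96 and 3.23. Fat1, Col4a4 and Usp54 had 9 each, a cadherin, a basement membrane collagen and an inactive member of the ubiquitin protease family. The predicted gene AC141959.1 had 12 peaks at a mean of 0.919 FPKM, and AABR07001382.1 and AABR07044388.2 had 9 peaks each, all in noncoding exons.

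Whether a gene carried a peak varied with its level in the input in a humped fashion. Of 13473 genes that averaged 1 FPKM or more, 10864 carried a peak, a share of 80.6% (95% Wilson interval 80.0 to 81.3%, counting error over genes only). Under 1 FPKM the share was 20.8%, or 1912 of 9190 genes, and among the 1651 genes listed at 0 in all 4 libraries 30 still had a peak. From low to high FPKM, the share was 17.2% above 0 to 0.5 FPKM, 63.0% from 0.5 to 1, 70.7% from 1 to 2, 79.4% from 2 to 5 and 85.5% from 5 to 10. It was highest, at 86.8%, from 10 to 20 FPKM. These classes go by the mean of the 4 libraries. Beyond that it was 82.7% up to 50 FPKM, 75.1% up to 100, 64.7% up to 500 and 57.7% at 500 FPKM and over. With genes classed by 1 library at a time, the share was between 86.3 and 86.9% at 10 to 20 FPKM (SD 0.305, n = 4) and between 54.0 and 60.8% at 500 FPKM and over (SD 3.11, n = 4). All 4 libraries were set against the same peak list, so this spread comes from re-classing genes. It is not a replicate error of the share. Above 0 to 0.5 FPKM single libraries gave 22.0 to 26.7%, more than the mean did.

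Median enrichment was lower at each step up the same scale from the class above 0 to 0.5 FPKM. The median log2 enrichment was 3.57 for peaks of genes above 0 to 0.5 FPKM, 2.47 from 2 to 5, 2.25 from 10 to 20, 2.01 from 50 to 100 and 1.78 at 500 FPKM and over. Spearman's rho between log2 enrichment and mean FPKM was -0.26 over 21444 peaks, which share their libraries, and the input enters both measures. Stop_codon peaks had a median of 3.78 above 0 to 0.5 FPKM, 3.32 from 1 to 2, 3.34 from 2 to 5, 3.04 from 10 to 20 and 2.00 at 500 FPKM and over. The 3′UTR peaks changed less over the middle of the scale, with medians of 1.88 from 1 to 2 FPKM, 1.84 from 10 to 20 and 1.84 from 100 to 500. Gene span also changed along the scale, with a median of 22068 bases at 10 to 20 FPKM and 3552 bases at 500 and over. By span alone, the share with a peak was 39.1% in the shortest of 10 equal groups of genes, 77.4% in the next and 90.2% in the longest. The part of span in the hump was not tested.

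**Figure D3:**
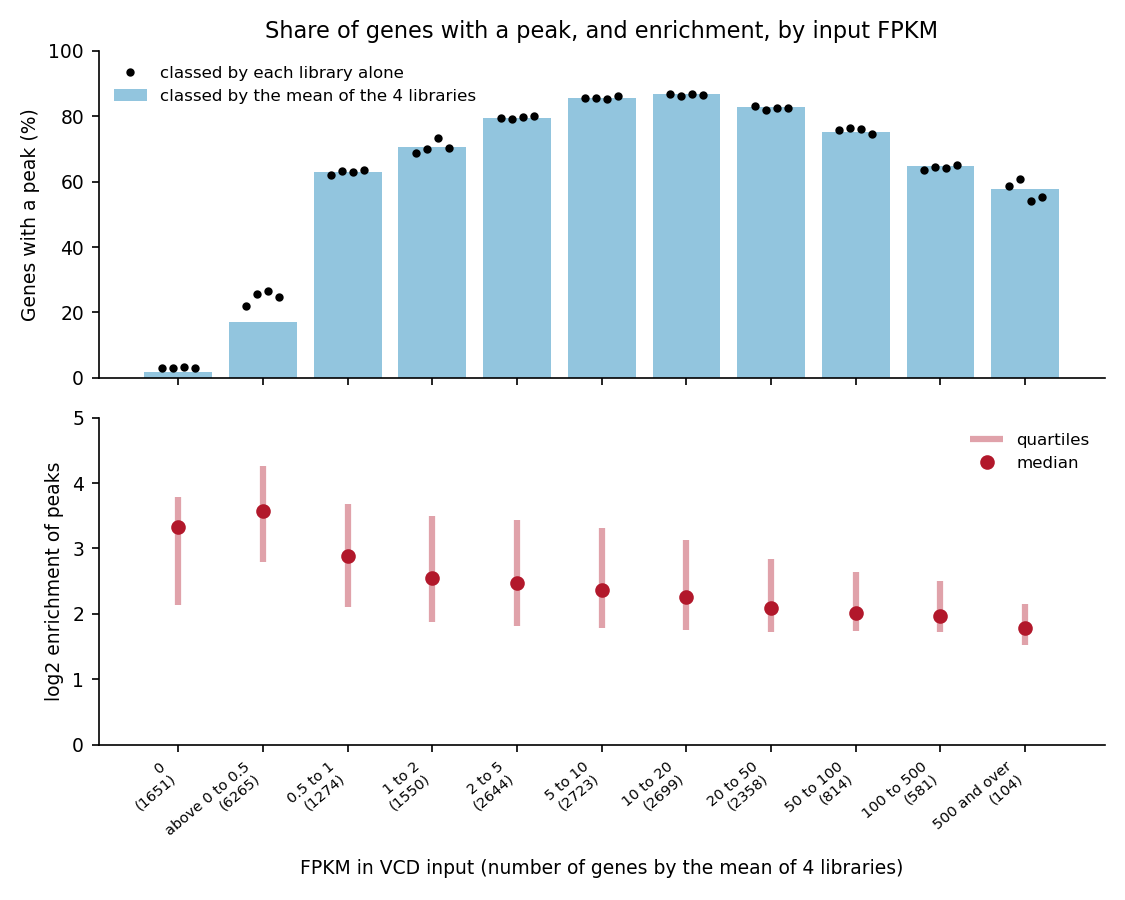
Upper panel, share of genes with at least 1 VCD peak (y axis, percent) by class of input FPKM (x axis), as bars for genes classed by the mean of the 4 libraries and points for genes classed by each library alone. Lower panel, median (points) and quartiles (lines) of log2 enrichment of the peaks in the same classes. The share is highest at 10 to 20 FPKM, at 86.8%, while the median enrichment is lowest at 500 FPKM and over, at 1.78.

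Genes with and without a peak differed little in the middle of their distributions and more in their width. Among genes that averaged 1 FPKM or more, the median level was 9.67 ± 0.33 FPKM for genes with a peak and 8.61 ± 0.26 FPKM for genes without (SD, n = 4 libraries). The difference in median log2(FPKM + 1), with minus without, was 0.175, 0.136, 0.168 and 0.125 in animals 1 to 4, on average 0.151 ± 0.025. It was above 0 in 4 of 4 libraries, but with peaks of log2 2 or more alone it was -0.404. The exact two-sided sign-flip permutation test gave p = 0.125, the smallest value that 4 libraries allow, so this design cannot reach 0.05. All 4 libraries were also set against the same genes and the same peak list. A like sign in all of them is therefore no replicate evidence, and no conclusion is drawn from p here or below. Genes with a peak had quartiles of 4.19 and 22.0 FPKM and genes without one of 2.73 and 30.9 FPKM, so the group without reached further both ways. Among genes that averaged 5 FPKM or more, of which 82.6% carried a peak, the direction was the reverse, with 15.3 ± 0.42 FPKM for genes with a peak and 22.3 ± 0.55 FPKM for genes without (log2 difference -0.511 ± 0.032, higher without in 4 of 4 libraries, exact p = 0.125).

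The most abundant messages of these ovaries split between both groups. Star, which brings cholesterol into mitochondria, was the most abundant gene with a peak, at 3771, 5563, 5247 and 4551 FPKM in animals 1 to 4. Its peak is a stop_codon peak of log2 2.70 at chromosome 16:71036204-71037402 on the minus strand. Cyp11a1, the side-chain cleavage enzyme that begins steroid synthesis, had 3302, 3977, 4035 and 3144 FPKM, a start_codon peak of log2 2.105 and a 5′UTR peak of 1.785. Hsd3b3 at 3020 ± 133 FPKM, Scarb1, the receptor for high-density lipoprotein, at 2795 ± 510, and Akr1c3 at 2544 ± 825 (SD, n = 4) had 2 peaks each, with highest values of 2.20, 1.79 and 1.69. Hsd3b3 and Akr1c3 belong to families of similar copies that can share reads, so their values are uncertain. These values lay under the median strongest peak of all genes with a peak and at least 1 FPKM, 2.84. Peaks of genes at 500 FPKM and over had a median of 1.78 and an upper quartile of 2.155, and the strongest peaks of Star and Hsd3b3 lay above that quartile.

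The most abundant genes without a peak were mostly those of protein synthesis and the cytoskeleton. Eef1a1, the translation elongation factor, had no peak at 4121, 4407, 4910 and 4097 FPKM. Neither did Actb, cytoplasmic actin, at 1426 ± 142 FPKM, nor the chaperone Hspa8 at 1119 ± 71.4 (SD, n = 4). The ribosomal genes Rplp0, Rpsa, Rps27, Rplp1, Rpl19 and Rps27a and the selenium carrier Selenop complete the 10 highest. Fth1, Rpl41, Tmsb4x, Ubb and Tpt1 were in the same range of levels and did have a peak, from log2 1.175 in Tpt1 to 3.39 in Tmsb4x.

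**Figure D4:**
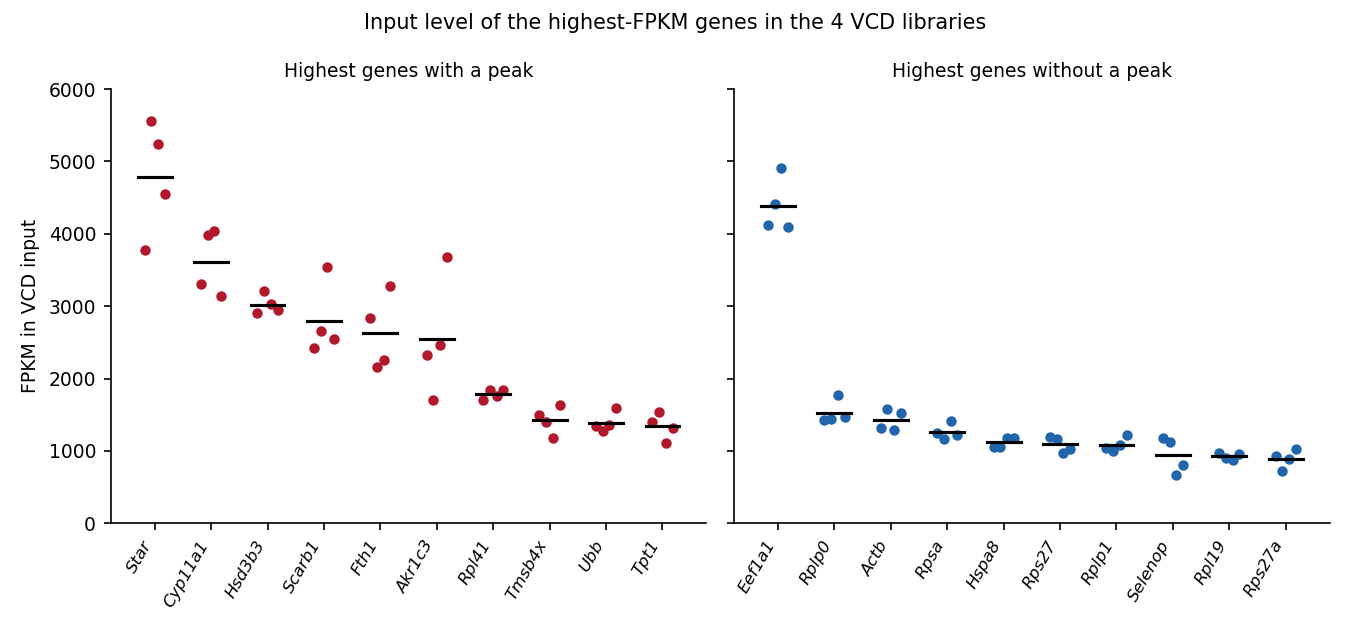
FPKM in the 4 VCD input libraries (y axis, points) of the 10 highest genes with a peak (left) and the 10 highest without (right), with black bars for means. Star with a peak and Eef1a1 without one lie at similar heights, with means of 4783 and 4384 FPKM.

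Most genes of the m6A machinery carried a peak, as most genes at 1 FPKM or more did, and these lists are short. All 9 writer genes reached 1 FPKM and carried a peak, against 80.6% of all such genes, with a median strongest log2 of 3.87 against 2.84. Mettl3, the catalytic subunit, had 32.1, 35.1, 31.1 and 33.8 FPKM in animals 1 to 4, a start_codon peak of log2 2.37 and a stop_codon peak of 1.64. Its partner Mettl14 had a stop_codon peak of 2.78 and a start_codon peak of 2.32. The adaptor genes were enriched more, with 3.87 in Wtap and in Zc3h13, 3.70 in Virma, 4.36 in Rbm15, 4.46 in Rbm15b and 4.46 in Cbll1. Mettl16, another RNA methyltransferase, reached 3.62.

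Both erasers carried peaks, each under the median of all genes, 2.84. Fto had 22.7, 17.7, 21.0 and 20.5 FPKM in animals 1 to 4, with a 3′UTR peak of log2 1.71 and exonic peaks of 1.64 and 1.497. Alkbh5 had 22.5, 19, 21.5 and 19.45 FPKM and 1 stop_codon peak of 2.38. Of 10 readers at 1 FPKM or more, 9 carried a peak (90% against 80.6% of all such genes). Ythdf2, which steers marked messages to decay, reached 4.31, Ythdf3 4.30 and Ythdf1 3.93, each in a stop_codon peak. The nuclear reader Ythdc1 had 3 peaks of at most 2.81, and the hnRNP genes Hnrnpa2b1 and Hnrnpc reached 3.22 and 2.41. Ythdc2, a helicase needed for meiosis in mice, was the exception, at 1.37 ± 0.31 FPKM (SD, n = 4) without a peak.

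Of the genes the series text names, beside Mettl3, Fto and Alkbh5, Bub1 and Cenpa carried peaks and Polq and Igf2bp3 did not. Bub1, a spindle checkpoint kinase, had 1.54, 1.06, 1.77 and 0.734 FPKM in animals 1 to 4, with a stop_codon peak of log2 2.79 at chromosome 3:120374329-120376482 and an exonic peak of 1.71, both on the minus strand. Cenpa, the centromeric histone, had 1.28, 0.604, 0.8955 and 0.716 FPKM and 1 3′UTR peak of 100 bases with log2 1.76. Polq, a polymerase of DNA end joining, lay at 0.139 ± 0.037 FPKM. Igf2bp3, an m6A reader, was at 0.120 FPKM in animal 1 and listed at 0 in the other 3, and 17.2% of genes above 0 to 0.5 FPKM had a peak.

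Granulosa and theca genes carried peaks about as often as all genes did, 80.6%. Of granulosa markers 16 of 19 had one (84.2%), with a median strongest log2 of 3.41, and of theca and steroidogenic markers 14 of 16 (87.5%), with 2.42. Cyp19a1, the aromatase of granulosa cells, had 124, 58.6, 24.8 and 108 FPKM in animals 1 to 4, lowest in animal 3, and a stop_codon peak of 3.26. Lhcgr, the receptor for luteinizing hormone, had an exonic peak of 4.12 at 180 ± 160 FPKM, where animal 2 was highest at 419. Inha, the inhibin alpha subunit, had 3 peaks of at most 1.82 at 700 ± 177 FPKM, and Inhbb reached 4.24. Fst, Hsd17b1 and Amhr2 were the granulosa markers with no peak, at 46.4, 50.7 and 10.5 FPKM, and Cyp17a1 and Fdx1 were those of the theca and steroidogenic list.

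Few oocyte markers reached 1 FPKM. Among the 5 oocyte markers at 1 FPKM or more, Gdf9 and Tle6 carried a peak and Kit, Zp2 and Padi6 did not, a share of 40% against 80.6% of all genes. With peaks of log2 2 or more it was 20%, from Gdf9 alone. Gdf9, a growth factor that the oocyte secretes to its follicle, had 1.44, 1.14, 1.24 and 1.05 FPKM and a stop_codon peak of log2 3.93 that spans 3749 bases. Kit is also made by other cells. Of the 24 markers under 1 FPKM, 5 had a peak, where 20.8% of all genes under 1 FPKM had one, and among the 5 were Npm2 and Ooep at 2.42 and 2.82. Npm2 and Ooep averaged 0.9915 and 0.992 FPKM. Over all genes the share was 17.2% above 0 to 0.5 FPKM and 63.0% at 0.5 to 1 FPKM.

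Immediate-early genes had the highest median enrichment of the 28 lists with at least 5 members at 1 FPKM or more. All 27 immediate-early genes carried a peak, against 80.6% of all genes at 1 FPKM or more, with a median strongest log2 of 4.22 (18.7-fold). The strongest peak was of the stop_codon class in 19 of them (70.4% against 48.7% of all genes with a peak). Dusp1, a phosphatase that shuts off MAP kinases, had a stop_codon peak of 4.61 and a start_codon peak of 1.87. Egr1, a zinc finger transcription factor, had a stop_codon peak of 4.31, and its level was 224, 76.35, 51.1 and 198 FPKM in animals 1 to 4, lowest in animal 3. Junb had a stop_codon peak of 4.22 and Nr4a1 a start_codon peak of 3.91 and a stop_codon peak of 3.90. Genes of this list were short, with a median span of 3802 bases against 17883 for all genes. The stop_codon peak of Junb spans 1775 of the 1783 bases of its gene, and that of Egr1 3147 of 3802. In such genes the class does not place the enrichment at the stop codon itself. The summed level of the list was lowest in animal 3, as was that of blood markers, and the part of this in the enrichment was not tested.

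All 22 signalling feedback genes carried a peak as well, against 80.6% of all genes, with a median of 3.81 against 2.84. The strongest peak was of the stop_codon class in 18 of them (81.8% against 48.7%). Errfi1, an inhibitor of the EGF receptor, had 3 peaks of at most 3.74, and Socs2, which dampens cytokine signalling, had 1 of 4.04. Nfkbia, the inhibitor of NF-kappa B, was lower at 1.82, and the clock gene Per1 had 3 peaks of at most 3.22. In the follicle activation list 18 of 19 genes carried a peak (94.7%), with a median of 3.735. Foxo1, a target of PI3K signalling, had 1 stop_codon peak of 4.93, Akt2 reached 3.38 and Akt1 1.80, and Kit was the member without a peak. The Foxo1 peak spans 75758 of the 75783 bases of its gene, introns included.

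Regulators of transcription stood beside them. All 39 chromatin regulators at 1 FPKM or more carried a peak, against 80.6% of all such genes, with a median strongest log2 of 3.64 against 2.84 and a median gene span of 82190 bases, against 17883 for all genes. Their strongest peak was of the stop_codon class in 15 (38.5%). Chd3 and Chd4, remodelling helicases, had 6 and 4 peaks, of at most 3.57 and 2.69. Of genes with Zfp symbols, most of them zinc finger proteins, 203 of 217 carried a peak (93.5%), with a median of 3.87 at a median level of 4.76 FPKM. Zfp36, which binds AU-rich messages, reached 4.36, while Zfp706 had none at 47.5 ± 1.7 FPKM (SD, n = 4). Of polycomb and developmental regulators 21 of 22 carried a peak (95.5%), with a median of 3.81.

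Cell division and repair genes were marked at low levels too. All 18 kinetochore and spindle genes at 1 FPKM or more carried a peak, against 80.6% of all such genes, with a median of 2.83 against 2.84. Below 1 FPKM 7 of 8 did, against 20.8% of all such genes. That background depends on level, with 17.2% above 0 to 0.5 FPKM and 63.0% at 0.5 to 1 FPKM, and the part of level was not tested. Cenpe, a kinetochore motor, had 7 peaks of at most 2.94, and Aurka, a spindle kinase, 1 of 3.74, while Mis18a had none at 0.929 FPKM. Of DNA repair genes at 1 FPKM or more 17 of 19 had a peak (89.5%), with a median of 3.22, and H2ax, the histone marked at breaks, reached 5.26. Fancd2 and Fanci, partners in crosslink repair, were the members without, at 1.45 and 1.52 FPKM. Of all genes at 1 to 2 FPKM, 70.7% had a peak. Of 14 meiotic prophase genes 11 were under 1 FPKM, and among the others Mlh3 and Msh5 had peaks of at most 3.28 and 3.325.

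At the other end lay the genes of protein synthesis and energy supply. Of 92 ribosomal protein genes 35 carried a peak (38.0% against 80.6%), with a median strongest log2 of 1.84, a median level of 420 FPKM and a median span of 2294 bases. Several have near-identical copies that can share reads. Of 81 nuclear genes of oxidative phosphorylation 49 carried one (60.5%), with a median of 2.03. Their median level was 106 FPKM and their median span 6413 bases. Atp5f1b at 763 ± 31.1 FPKM, Cox4i1 at 472 ± 42.1 and Atp5f1a at 395 ± 20.03 (SD, n = 4) had none, while Cox6a1 at 463 ± 38.0 had a stop_codon peak of 3.23. Proteasome genes had a peak in 30 of 45 (66.7%, median 2.09) and housekeeping genes in 9 of 15 (60.0%, median 1.87). The median levels of these 2 lists were 72.2 and 741 FPKM, and the median spans 9523 and 5202 bases. Over all genes, the share with a peak was 75.1% at 50 to 100 FPKM, 64.7% at 100 to 500 and 57.7% at 500 and over. Among genes spanning 49 to 9237 bases it was 66.7%, 58.9% and 53.7% in the same classes. The part of level and span in the shares of these lists was not tested. With peaks of log2 2 or more the shares were 14.1% for ribosomal, 32.1% for oxidative phosphorylation, 37.8% for proteasome and 26.7% for housekeeping genes, against 63.7% of all genes.

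Of 20 antioxidant and epoxide genes, which handle peroxides and epoxides, 15 carried a peak (75% against 80.6%), with a median of 1.99 against 2.84. Their median level was 73.1 FPKM, and 75.1% of all genes at 50 to 100 FPKM had a peak. With peaks of log2 2 or more the share was 35.0%, against 63.7% of all genes. The glutathione transferase genes Gsta1 and Gstm1 had peaks of 2.38 and 1.78 at 604 and 416 FPKM, and Prdx1 one of 1.62. The glutathione transferase genes have close copies that can share reads, which makes their values uncertain. Sod1, Gpx1, Gstp1 and Gpx4 had none, at 546, 354, 133 and 115 FPKM. Of p53 targets and apoptosis genes 12 of 15 had a peak, 80.0% and so about the share of all genes, with Gadd45a at 3.64 and Bax at 1.57, while Ccng1, Zmat3 and Apaf1 had none.

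Of 26 collagen genes 25 carried a peak (96.2% against 80.6% of all genes), with a median of 2.30 against 2.84 and a median span of 87916.5 bases. With peaks of log2 2 or more the share was 65.4%, near the 63.7% of all genes. Col1a1 had 1 stop_codon peak of 3.455 and Col3a1 1 3′UTR peak of 1.07, at 154 ± 54.5 and 186 ± 71.6 FPKM (SD, n = 4). Of stroma and fibroblast markers 10 of 12, of endothelial 9 of 10, of smooth muscle 8 of 9 and of macrophage 9 of 10 carried a peak, shares of 83.3 to 90% that are close to the 80.6% of all genes for lists this short. The median strongest log2 of the stroma and fibroblast list was 3.29. Among the 28 lists with at least 5 members at 1 FPKM or more, 20 lay above and 8 below the share of all genes.

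**Figure D5:**
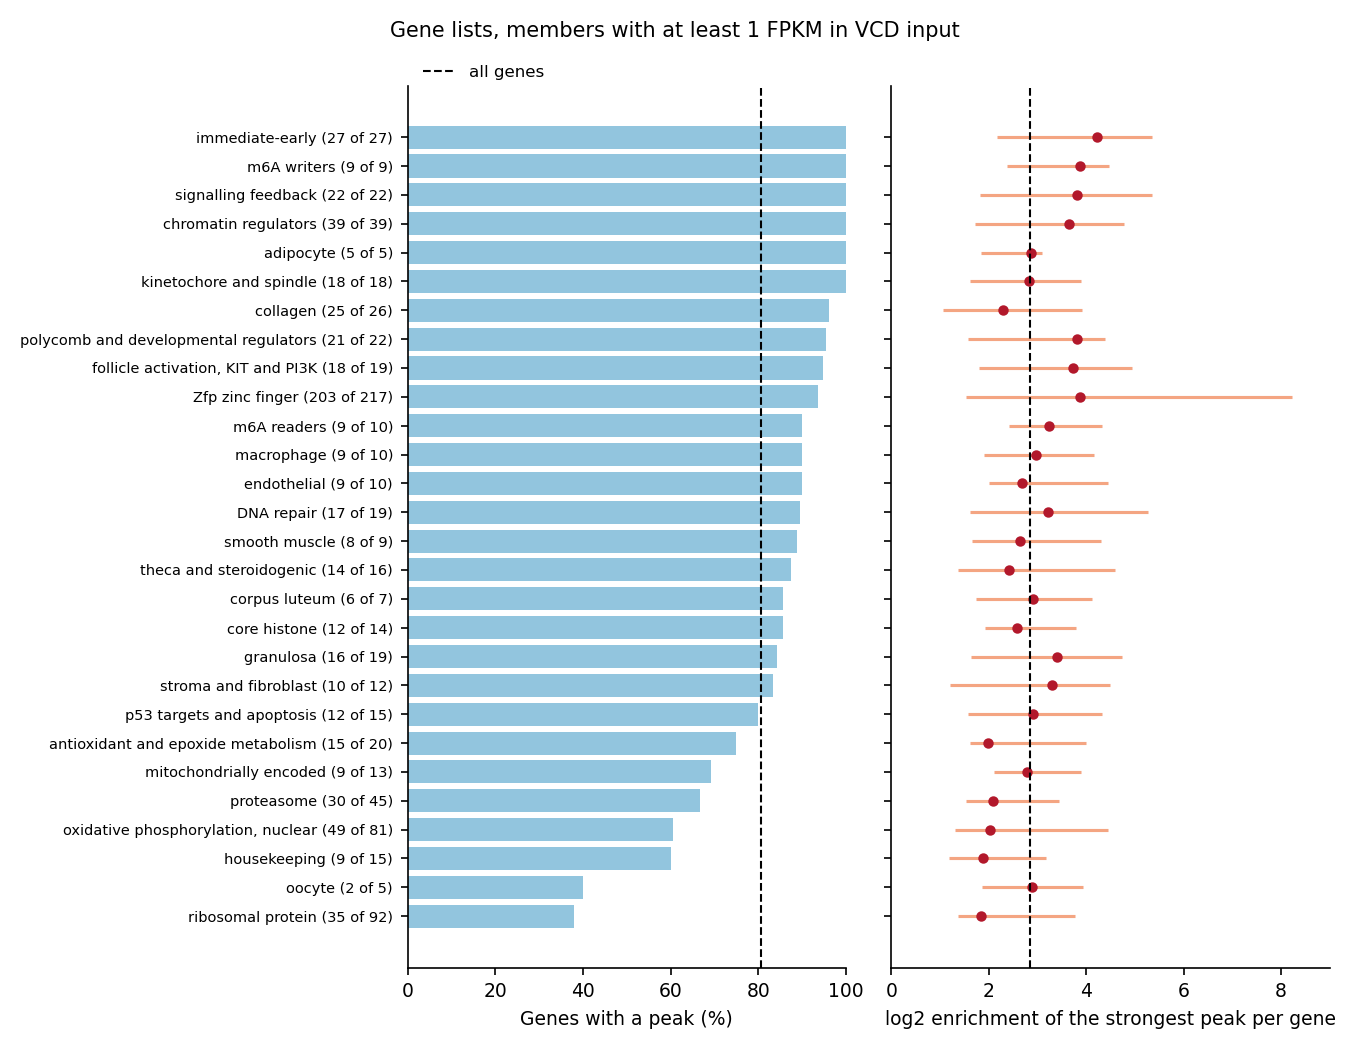
Left, share of members with at least 1 FPKM that carry a VCD peak (x axis, percent), for the 28 lists with at least 5 such members, with counts beside the names. Right, median (points) and range (lines) of the log2 enrichment of each gene's strongest peak, where dashed lines mark all genes, at 80.6% and 2.84. Immediate-early genes head the plot at 27 of 27 with a median of 4.22, and ribosomal protein genes close it at 35 of 92 with 1.84.

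Mitochondrial transcripts were also listed. Of 13 protein-coding genes of the mitochondrial genome 9 carried a peak (69.2% against 80.6% of all genes), all annotated exonic, with strongest values between 2.098 and 3.88. The highest, named after its value was seen, was in Mt-nd6, 519 bases on the minus strand of the mitochondrial genome. Mt-nd6 also had the lowest level of the 13 genes, 3.10 FPKM, where their median was 42.7 FPKM. Mt-atp6 reached 3.03, Mt-co2 2.78, Mt-nd1 2.39 and Mt-cyb 2.098. Mt-co1, Mt-co3, Mt-atp8 and Mt-nd4l had none, at 130, 66.7, 77.3 and 15.6 FPKM. On the X chromosome 71.9% of genes at 1 FPKM or more carried a peak, against 78.3 to 86.0% on the other nuclear chromosomes.

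The share with a peak differed by gene type. A peak was present in 83.9% of 12624 protein-coding genes, in 50.9% of 169 lincRNA genes and in 46.8% of 301 pseudogenes with at least 1 FPKM. Genes annotated processed_transcript were at 87.2% (34 of 39), with a median span of 64837 bases. None of the 173 snoRNA genes had one. The coding genes spanned a median of 19692 bases, the lincRNA genes 4479, the pseudogenes 711 and the snoRNA genes 91, and the part of span in these shares was not tested. Rtl8a and the ubiquitin gene Ubb, both annotated as pseudogenes in the files, had noncoding exon peaks of 5.43 and 2.48.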

How the data were processed

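The peak list and the gene expression table were used as the authors deposited them. Per the labels' protocols, poly(A) RNA was fragmented, part of it was pulled down with an m6A antibody, and stranded libraries were made. Per the submitters' processing notes, fastp 0.19.4, HISAT2 2.0.4, StringTie 2.1.2 and HOMER 4.10 were among the tools, with no role given, and the notes name a human build, GRCh38. The peak caller and the build of the coordinates are not given in the sources used here. Per the file headers, each peak has a log2 ratio of IP over input, an adjusted p-value and an annotation. Per the file headers, the deposited expression table gives FPKM per gene and input library. FPKM keep no read totals, so depth is unknown, and summed FPKM lay between 406479 and 421628 per library.

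Peaks were joined to genes by gene identifier, and a gene counted as expressed where the 4 VCD input libraries averaged 1 FPKM or more. Peak length was taken from its first to its last base, introns included. Medians of log2(FPKM + 1) of genes with and without a peak were compared in each library with an exact two-sided sign-flip permutation test. Levels between genes are FPKM, which are per length. Labels number the animals, but nothing else in them says how samples were taken, so the spread is that between these 4 libraries. The share of all expressed genes with a peak carries a Wilson interval, which covers counting error only. Genes were named by rule: most peaks, strongest peaks overall and by class, highest FPKM with and without a peak, genes of the series text and m6A machinery, and the highest members of each list with and without a peak. The members, rules and lists were chosen with earlier results of these data known. Alternatives were other FPKM minimums, no minimum, a pseudocount of 0.1, an adjusted p under 0.01, a log2 enrichment of at least 2, merged peaks, a join by symbol, protein-coding genes alone, the strongest peak of each gene, and each library left out in turn. Calculations used Python 3.11.15 with pandas 2.3.3 and scipy 1.17.1, and the counting code was tested on simulated data. A list of 10 long noncoding RNAs was not analysed here, since none of its symbols matched, and a few other genes of the lists are not reported here. IP libraries have no values of their own in the tables used.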

Additional observations from a re-analysis of the deposited data

Results flagged for a closer look

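In 8 of 137 genes checked, 1 of the 4 input libraries lay far from the other 3 by Dixon's test at its 95% limit, about as often as chance gives, 1 group in 20. Animal 3 was highest for Col1a1, at 235.4 FPKM against 121.6 to 132.7 in the other animals, for Col3a1, at 293.3 against 144.0 to 155.3, and for Rplp0, at 1767 against 1431 to 1475. It was lowest for Mt-nd1, at 32.94 FPKM against 45.32 to 46.36. Animal 2 was highest for Lhcgr, at 418.8 FPKM against 76.64 to 124.9, and lowest for Mt-nd6, at 2.494 against 3.263 to 3.350. In animal 1 Wtap was highest, at 19.68 FPKM against 18.38 to 18.58, and Igf2bp3 was at 0.1203 FPKM and listed at 0 in the others. No peak value of these genes can be set against these libraries, since each peak has 1 value for all of them.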

How the results depend on the processing

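The share of expressed genes with a peak, 80.6%, was 79.1% at 0.5 FPKM or more, 82.6% at 5 or more, 81.7% at 1 FPKM or more in every library, 83.9% among protein-coding genes and 63.7% with peaks of log2 2 or more. With such peaks 27.0% of genes had at least 2, against 45.7%. With the strongest peak of each gene, and then with genes of at least 5 FPKM, class medians were 3.287 and 2.94 for stop_codon, 2.91 and 2.015 for exonic, 2.305 and 1.797 for 3′UTR, 2.355 and 2.017 for start_codon, 2.2 and 1.914 for 5′UTR and 3.032 and 2.185 for noncoding exon peaks, so stop_codon stayed highest of the 6. The log2 difference in level between genes with and without a peak, 0.151, was -0.511 at 5 FPKM or more and -0.404 with peaks of log2 2 or more, and the cause was not tested. It was 2.955 with no minimum and 0.166 with a pseudocount of 0.1. Leaving out 1 library gave 0.123 to 0.151 for this difference (exact permutation p 0.25, the smallest that 3 libraries allow), 80.6 to 80.8% for the share, 86.5 to 87.1% for the share at 10 to 20 FPKM and 55.9 to 59.2% at 500 FPKM and over. The peak list stayed the same when a library was left out. Of 56 list shares under other settings, 45 lay within the 95% interval of the list's own share and 11 outside it. These intervals are wide for short lists, and with peaks of log2 2 or more the share of the corpus luteum list was 57.1% against 85.7%, of smooth muscle 66.7% against 88.9% and of theca and steroidogenic 68.8% against 87.5%. The oocyte list was at 0.0% with 5 FPKM or more. Kit, at 7.23 FPKM, was its only member at that level, and Kit is also made by other cells. No paired analysis was possible because each peak has 1 value for all animals and no IP value per animal is given. Depth limits all peak calls to an unknown degree, since no read totals are given.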
